A study of Mus musculus with 14 samples.

Results

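The mitochondrial carrier family SLC25 was described in livers of miR-122 knockout male mice and of control mice, miR-122 being a microRNA found at high levels in hepatocytes. The members were the probe sets of the authors' deposited 5-week table whose gene symbol starts with Slc25a and a digit, except Slc25a20. There were 40 such probe sets of 36 genes, among the 14996 probe sets of that table. The 5-week knockout livers (KO) are labelled miR-122loxP/loxP Alb-Cre, that is, floxed miR-122 alleles with a Cre recombinase driven by the albumin promoter, which is active in hepatocytes. Their controls are labelled miR-122loxP/loxP, floxed alleles without that Cre, and wild type in the sample titles. Elsewhere, the series' description of its design speaks of germ-line knockout animals at this age, so the labels disagree on which cells lacked miR-122. All these mice were males 5 weeks old, the genetic background is given as 57/BL6J, no agent was given, and each genotype had 2 arrays. The series also lists 10 arrays of livers at 8 weeks, 5 of each genotype, which were not analysed here because their probe sets could not be paired with genes. The labels do not say that each array came from a separate mouse, so the p-values measure only the spread between these samples, which may be technical.

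Members of the SLC25 family are small proteins of the inner mitochondrial membrane that exchange one solute for another between the matrix and the cytosol. In hepatocytes they carry ATP out and ADP and phosphate in, and they move the intermediates of the urea cycle, gluconeogenesis, fatty acid synthesis and the malate-aspartate shuttle. A few members serve other membranes, such as Slc25a17 of peroxisomes and Slc25a46 of the outer mitochondrial membrane.

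The 4 carriers past the threshold described below were Slc25a24, Slc25a4 and Slc25a34, which were higher in KO livers, and Slc25a21, which was lower. Their log2 differences, KO minus control, were 1.75, 1.09, 0.57 and -1.18. The other carriers differed less, or varied more within a genotype. Of the 40 probe sets, 28 had a lower mean in KO livers, a share of 70% that stood beside 49.4% of all 14996 probe sets. The median difference was -0.10 (quartiles -0.22 and 0.02), beside 0.0 (quartiles -0.16 and 0.21) over the table and -0.055 over all 35556 probe sets of the value table. The median carrier level varied between arrays of a genotype with an SD of 0.056. As single arrays were left out, the median difference ran from -0.14 to -0.06.

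**Figure D1:**
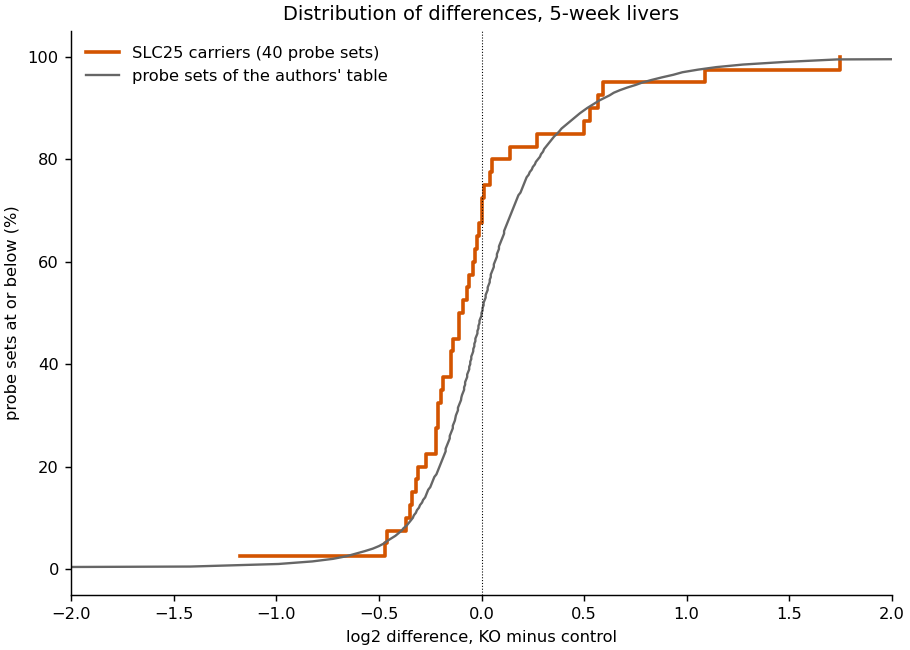
Cumulative distribution of the log2 difference (KO minus control, x axis) for the 40 SLC25 probe sets (orange) and all 14996 probe sets of the authors' table (grey), with the percentage of probe sets at or below each value on the y axis. The orange curve lies to the left of the grey one around 0, with medians of -0.10 and 0.0. Its ends are Slc25a21 at -1.18 and Slc25a24 at 1.75.

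Whether these differences passed a test depended on which probe sets were tested. With limma's moderated test over all 35556 probe sets of the value table, no probe set passed an adjusted p of 0.05 (Benjamini-Hochberg), so percent called was 0 and no carrier was called. The smallest adjusted p over all of them was 0.0524, and 5640 probe sets (15.9%), 7 of them carriers, had an unadjusted p under 0.05. Over the 14996 probe sets of the authors' table, in which the higher genotype mean was never under 4.94, 1794 probe sets passed (12.0%), 1304 of them higher (8.70%) and 490 lower (3.27%) in KO livers. There 3 carriers were called higher and 1 lower, a share of 10% of the family that is near the 12.0% of the table. Below, "called" refers to the table's probe sets, and for each called carrier the adjusted p over all 35556 stands beside it. Likewise, "measured" refers to genes named in that table. Genes missing from it were not looked up on the arrays and may have values there. Leaving out any 1 of the 4 arrays left a genotype with 1 array, and no call then stood, for carriers or for any other probe set of the table. The difference then ran from 1.33 to 2.16 for Slc25a24 and from 0.98 to 1.21 for Slc25a4. It ran from 0.50 to 0.64 for Slc25a34 and from -1.25 to -1.11 for Slc25a21.

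By position of the arrays, both KO values lay below both control values for 19 carrier probe sets (47.5%) and above them for 6 (15%). Over all 14996 probe sets, 27.1% lay below and 30.4% above. For 15 carrier probe sets the genotypes overlapped. The difference was larger than both gaps between arrays of one genotype for 19 probe sets (47.5%), close to the 46.1% of the table. A log2 difference of 0.5 or more was found for 6 carrier probe sets (10.5% of the table) and one of -0.5 or lower for 1 (4.54% of the table).

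Upstream sequences are shown for the 4 called carriers, the members whose differences passed the threshold over the authors' table. They run from 250 bases before to 50 after an annotated start (RefSeq, GRCm38.p6), and Slc25a21 has 2 such starts. Capitals mark every match, on either strand, to 1 of 6 motifs: the GC box GGGCGG, the CCAAT box CCAAT, the TATA box TATAAA, the NRF1 motif (GCGC, any 2 bases, then GCGC), the ERR motif NAAGGTCA and the AP-1 motif TGANTCA.
Slc25a24, chr3:109122899-109123198, plus strand: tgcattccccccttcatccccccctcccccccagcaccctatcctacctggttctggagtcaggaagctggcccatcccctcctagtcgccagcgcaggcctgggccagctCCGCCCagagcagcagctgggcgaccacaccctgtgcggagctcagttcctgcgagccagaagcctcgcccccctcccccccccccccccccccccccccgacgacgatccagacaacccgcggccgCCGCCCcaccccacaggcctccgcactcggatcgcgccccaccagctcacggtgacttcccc
Slc25a4, chr8:46211013-46211312, minus strand: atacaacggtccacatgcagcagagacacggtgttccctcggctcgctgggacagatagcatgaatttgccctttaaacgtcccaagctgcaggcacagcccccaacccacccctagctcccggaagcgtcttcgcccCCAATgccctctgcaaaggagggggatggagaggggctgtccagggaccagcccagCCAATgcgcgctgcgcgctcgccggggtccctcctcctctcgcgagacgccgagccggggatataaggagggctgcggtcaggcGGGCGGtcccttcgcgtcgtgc
Slc25a34, chr4:141623785-141624084, minus strand: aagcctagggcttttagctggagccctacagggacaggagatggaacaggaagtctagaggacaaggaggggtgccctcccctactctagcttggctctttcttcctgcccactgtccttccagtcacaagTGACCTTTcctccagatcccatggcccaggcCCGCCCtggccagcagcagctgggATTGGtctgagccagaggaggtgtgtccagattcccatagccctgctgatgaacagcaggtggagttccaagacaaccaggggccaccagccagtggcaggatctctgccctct
Slc25a21, chr12:57197423-57197722, minus strand: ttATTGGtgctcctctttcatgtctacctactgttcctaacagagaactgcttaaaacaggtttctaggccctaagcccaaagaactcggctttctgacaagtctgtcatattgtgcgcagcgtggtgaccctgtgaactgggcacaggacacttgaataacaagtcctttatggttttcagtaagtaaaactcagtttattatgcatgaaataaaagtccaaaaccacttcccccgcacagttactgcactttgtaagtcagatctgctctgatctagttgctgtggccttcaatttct
Slc25a21, chr12:57160594-57160893, minus strand: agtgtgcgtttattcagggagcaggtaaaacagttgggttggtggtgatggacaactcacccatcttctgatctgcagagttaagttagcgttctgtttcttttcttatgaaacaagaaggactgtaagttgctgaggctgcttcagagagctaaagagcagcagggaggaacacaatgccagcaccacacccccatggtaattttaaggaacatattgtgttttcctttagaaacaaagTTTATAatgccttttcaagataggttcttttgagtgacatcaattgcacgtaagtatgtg

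Slc25a24 had 2 GC boxes and Slc25a4 had 1 GC box and 2 CCAAT boxes. Slc25a34 had 1 GC box, 1 CCAAT box and 1 ERR motif. At Slc25a21, the first start had 1 CCAAT box and the second 1 TATA box. The G and C content was 72.3% for Slc25a24, 65.7% for Slc25a4 and 59% for Slc25a34, against 43% and 41.7% at the starts of Slc25a21. RefSeq promoters of this length were matched for 28 of the 36 carrier genes (35 promoters). A GC box stood in 85.7% of these, against 35.7% of all 32851 promoters. A CCAAT box stood in 57.1% of carrier promoters and 37.4% of all, and a TATA box in 2.86% and 13.6%. The NRF1 motif, bound by a factor of many nuclear genes for mitochondrial proteins, stood in 5.71% of carrier promoters and 6.23% of all. The ERR motif stood in 2.86% and 4.69%, and the AP-1 motif in 5.71% and 7.81%. The median G and C content was 60.7% for carrier promoters and 52.7% for all. These matches describe letters only, and the GC box share moves with the base composition.

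Adenine nucleotide carriers form the largest substrate group, with 9 probe sets of 7 genes. Slc25a24 encodes a calcium-regulated exchanger of ATP-magnesium for phosphate. Its log2 values were 7.70 and 7.94 in KO livers, against 5.66 and 6.49 in control livers. The genotypes did not overlap, and the control arrays lay 0.83 apart, the lower one below the median level of 5.97 of olfactory receptor probe sets, a guide to background. The difference of 1.75 (SE 0.28), or 3.35-fold with a size made uncertain by that low control value, was called (limma, adjusted p = 0.0189), while over all 35556 probe sets the adjusted p with limma was 0.109.

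Slc25a4 encodes the ADP/ATP carrier known as ANT1, the isoform typical of heart and skeletal muscle. It had log2 values of 8.57 and 8.49 in KO livers, against 7.32 and 7.55 in control livers. Both KO arrays stood well above both control arrays. The difference of 1.09 (SE 0.12), or 2.14-fold, was called (limma, adjusted p = 0.00867), with an adjusted p of 0.0748 over all 35556 probe sets. Of 5 listed skeletal muscle markers, 3 were measured, Ckm, Acta1 and Tnni2. None of these 3 was called, with differences from -0.06 to 0.11. Their genotype means ran from 6.425 to 6.730, not far above the median olfactory receptor level of 5.97. The part of muscle RNA in the Slc25a4 values was not tested.

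Slc25a5, the ADP/ATP carrier isoform known as ANT2, was measured by 3 probe sets, whose differences were -0.02, 0.00 and 0.00. On the probe set with the widest interval, the 95% interval of the difference ran from -0.28 to 0.27. The genotypes overlapped on all 3. Which copy each of these probe sets reads is uncertain, since RefSeq lists a pseudogene, Slc25a5-ps, and that pseudogene had its own probe set with a difference of -0.20 (adjusted p = 0.304 with limma).

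Slc25a23 and Slc25a25 encode the other measured calcium-regulated ATP-magnesium carriers. Slc25a23 had log2 values of 10.07 and 10.23 in KO livers, against 10.52 and 10.53 in control livers. All KO values were lower, but the difference of -0.37 (SE 0.11) was not called (limma, adjusted p = 0.0845). Slc25a25 had 9.96 and 9.35 in KO livers, against 8.70 and 9.55 in control livers. The genotypes overlapped, the control arrays lay 0.85 apart, and the difference of 0.53 (SE 0.33) was not called (limma, adjusted p = 0.357), with values of 0.10 to 0.95 as single arrays were left out. Thus the 3 ATP-magnesium carriers had differences of 1.75, 0.53 and -0.37, and the 2 ADP/ATP carriers 1.09 and about 0. Whether the genotype differences differ between genes was not tested. Slc25a42, a carrier of coenzyme A, differed by -0.11 (interval -0.37 to 0.14). Slc25a17, a carrier of cofactors in peroxisomes, differed by 0.01 (interval -0.23 to 0.26).

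**Figure D2:**
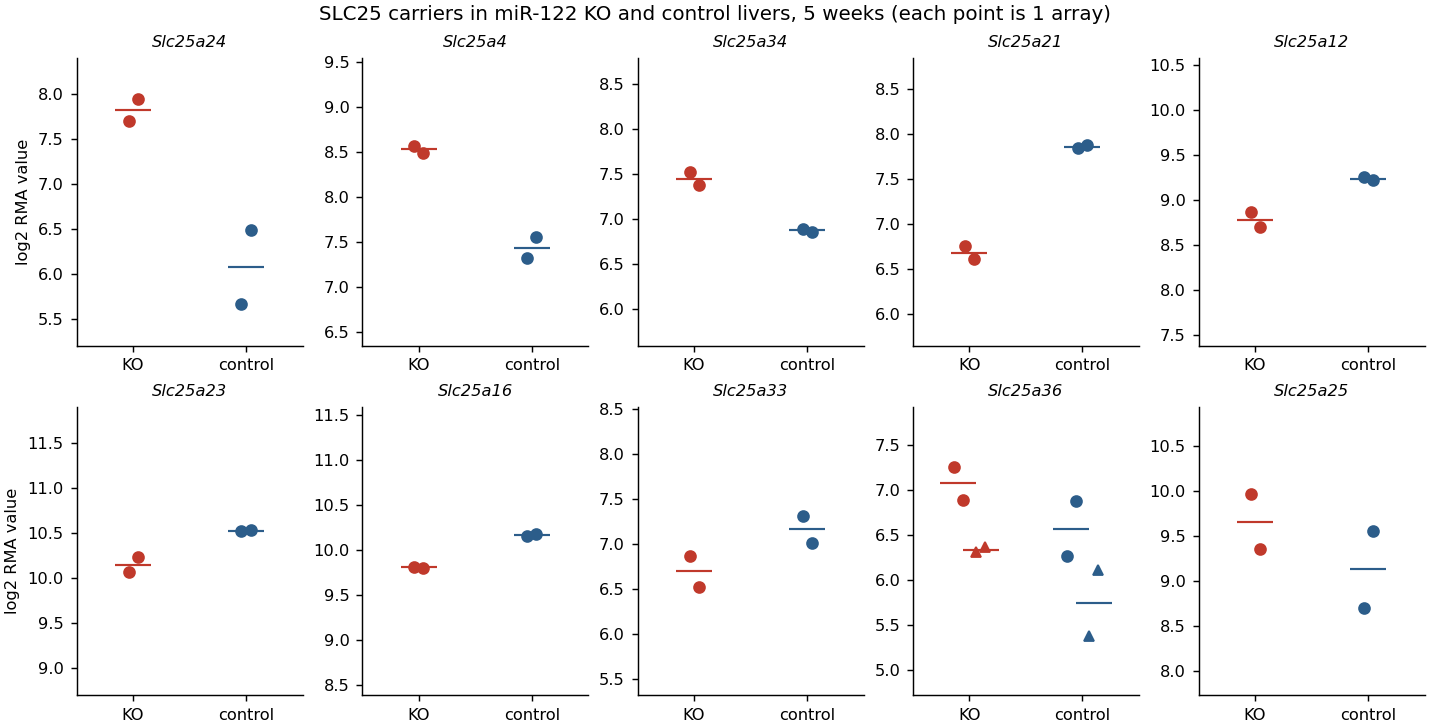
Log2 RMA values (y axis, each panel spanning the same range) of 10 SLC25 genes in KO and control livers at 5 weeks. Each point is 1 array, lines are means of 2 arrays, and circles and triangles mark the 2 probe sets of Slc25a36. Slc25a24 sits at 7.70 and 7.94 in KO livers and at 5.66 and 6.49 in control livers, and Slc25a21 at 6.75 and 6.61 in KO livers and at 7.84 and 7.88 in control livers.

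Slc25a3 carries the phosphate that ATP synthase needs, and also copper. Its log2 values were 11.31 and 11.22 in KO livers, against 11.61 and 11.36 in control livers. The KO values were lower without overlap, but the difference of -0.22 (interval -0.53 to 0.09) was smaller than the gap of 0.25 between the control arrays.

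Among carriers of dicarboxylates, tricarboxylates and oxoacids, 3 of 4 were lower in both KO arrays and 1 was called. Of the table's probe sets, 27.1% were lower without overlap and 12.0% were called. Slc25a21 encodes the oxodicarboxylate carrier, which brings 2-oxoadipate of lysine and tryptophan breakdown into the matrix. It had log2 values of 6.75 and 6.61 in KO livers, against 7.84 and 7.88 in control livers. The difference of -1.18 (SE 0.11) means a level 2.27 times lower in KO livers and exceeded both gaps within a genotype, 0.14 and 0.04. It was called (limma, adjusted p = 0.00575), with an adjusted p of 0.0632 over all 35556 probe sets.

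Slc25a11, the oxoglutarate carrier of the malate-aspartate shuttle, had 10.00 and 9.77 in KO livers, against 10.29 and 10.10 in control livers. Its difference was -0.31 (interval -0.64 to 0.02). Slc25a1, which exports citrate for fatty acid synthesis, had 10.52 and 10.69 in KO livers, against 10.88 and 10.75 in control livers, a difference of -0.21 (interval -0.50 to 0.08). Both were lower without overlap, and neither was called. The dicarboxylate carrier Slc25a10 differed by 0.04 (interval -0.22 to 0.29), with overlapping genotypes.

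All 3 aspartate or glutamate carriers had lower means in KO livers, and none was called. The table's shares were 49.4% with a lower mean and 12.0% called. Slc25a12 encodes aralar, the calcium-regulated aspartate/glutamate exchanger typical of brain and muscle. It had 8.86 and 8.70 in KO livers, against 9.25 and 9.22 in control livers. The difference of -0.46 (SE 0.11) was larger than both gaps within a genotype and just missed the threshold (limma, adjusted p = 0.0527). Slc25a13, known as citrin and the main liver isoform of the same exchanger, had 10.84 and 10.86 in KO livers, against 10.99 and 11.09 in control livers. Its difference was -0.19 (interval -0.44 to 0.06). The glutamate carrier Slc25a22 differed by -0.07 (interval -0.48 to 0.33), and its genotypes overlapped.

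Slc25a15 is the ornithine carrier of the urea cycle. It had log2 values of 11.01 and 10.95 in KO livers, against 11.02 and 11.01 in control livers, a difference of -0.04 (interval -0.28 to 0.21). Slc25a29, a carrier of basic amino acids, had 5.90 and 6.18 in KO livers, against 6.33 and 6.43 in control livers, lower without overlap. Its difference of -0.34 was not called (limma, adjusted p = 0.162). Among the other amino acid carriers, the glycine carrier Slc25a38 differed by -0.22 (interval -0.53 to 0.09), with all KO values lower. Slc25a44, reported to carry branched-chain amino acids, differed by 0.05 (interval -0.20 to 0.30).

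The 3 cofactor carriers described in this paragraph had lower means in KO livers, and none was called. Slc25a51, a cofactor carrier outside the symbol rule that is described below, went the other way. It was higher by 0.88 and called (limma, adjusted p = 0.0244), with 0.126 over all probe sets of the value table. Slc25a16, linked to coenzyme A transport, had close replicates, with 9.81 and 9.80 in KO livers, against 10.15 and 10.17 in control livers. Its difference of -0.35 (SE 0.10) did not pass (limma, adjusted p = 0.0741). Slc25a32, a folate and flavin carrier, differed by -0.20, and Slc25a26, the S-adenosylmethionine carrier, by -0.11. Only Slc25a32 overlapped between genotypes among these 3.

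The 2 measured pyrimidine nucleotide carriers had differences of opposite sign. Slc25a36 was measured by 2 probe sets. The first had 6.31 and 6.36 in KO livers, against 5.38 and 6.11 in control livers, and the second had 7.26 and 6.89 in KO livers, against 6.26 and 6.88 in control livers. KO values were higher without overlap on both, by 0.59 and 0.50. As single arrays were left out, the first difference ran from 0.22 to 0.95 and the second from 0.19 to 0.81. Slc25a33 had 6.87 and 6.53 in KO livers, against 7.32 and 7.01 in control livers. Its difference of -0.47 (SE 0.17) was lower without overlap. No probe set of either gene was called (limma, adjusted p = 0.179, 0.233 and 0.142).

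The iron carriers Slc25a37, or mitoferrin-1, and Slc25a28, or mitoferrin-2, overlapped between genotypes. Slc25a37 had 8.02 and 8.61 in KO livers, against 8.31 and 8.04 in control livers, a difference of 0.14 (interval -0.40 to 0.68). Its gap of 0.59 between the KO arrays was far larger than that difference. Mitoferrin-1 is the isoform of red cell precursors. Within each genotype its values followed the order of Alas2, the erythroid aminolevulinate synthase gene of haem synthesis. Alas2 had 8.58 and 9.22 in KO livers, against 9.27 and 8.20 in control livers. The alpha-globin gene Hba-a1 likewise had 12.44 and 13.02 in KO livers, against 12.86 and 12.24 in control livers. Over the 4 measured erythroid markers of 7, none was called, and the summed linear signal (2 to the power of each log2 value) was 12872 and 18785 in KO livers, against 15948 and 11827 in control livers. The part of red cell RNA in the Slc25a37 values was not tested. Slc25a28 differed by -0.03 (interval -0.33 to 0.27).

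Both glutathione carriers were lower without overlap, as were 27.1% of the table's probe sets, and not called. Slc25a39 had 11.16 and 11.25 in KO livers, against 11.42 and 11.27 in control livers, a difference of -0.14. Slc25a40 had 6.02 and 6.30 in KO livers, against 6.37 and 6.48 in control livers, a difference of -0.27. Each difference was smaller than the larger gap within a genotype, 0.15 and 0.28. The carriers related to uncoupling proteins were Slc25a30, with a difference of -0.21 (interval -0.46 to 0.05), and Slc25a27, with -0.01. The Slc25a27 means of 5.930 in KO livers and 5.945 in control livers both lay under 5.97, the median olfactory receptor level.

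Among carriers with no settled substrate, Slc25a34 was called. It had 7.52 and 7.38 in KO livers, against 6.89 and 6.86 in control livers, and both KO arrays were higher. The difference of 0.57 (SE 0.11), or 1.49-fold, passed (limma, adjusted p = 0.0272), with an adjusted p of 0.135 over all 35556 probe sets. Its close relative Slc25a35 had 6.61 and 6.85 in KO livers, against 6.51 and 6.40 in control livers, a difference of 0.27 (interval -0.04 to 0.59) that was not called. Slc25a46, which acts in mitochondrial fission at the outer membrane, was lower without overlap on both of its probe sets, by -0.32 and -0.15. Slc25a45 and Slc25a43 differed by -0.15 and -0.06, with overlapping genotypes.

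**Figure D3:**
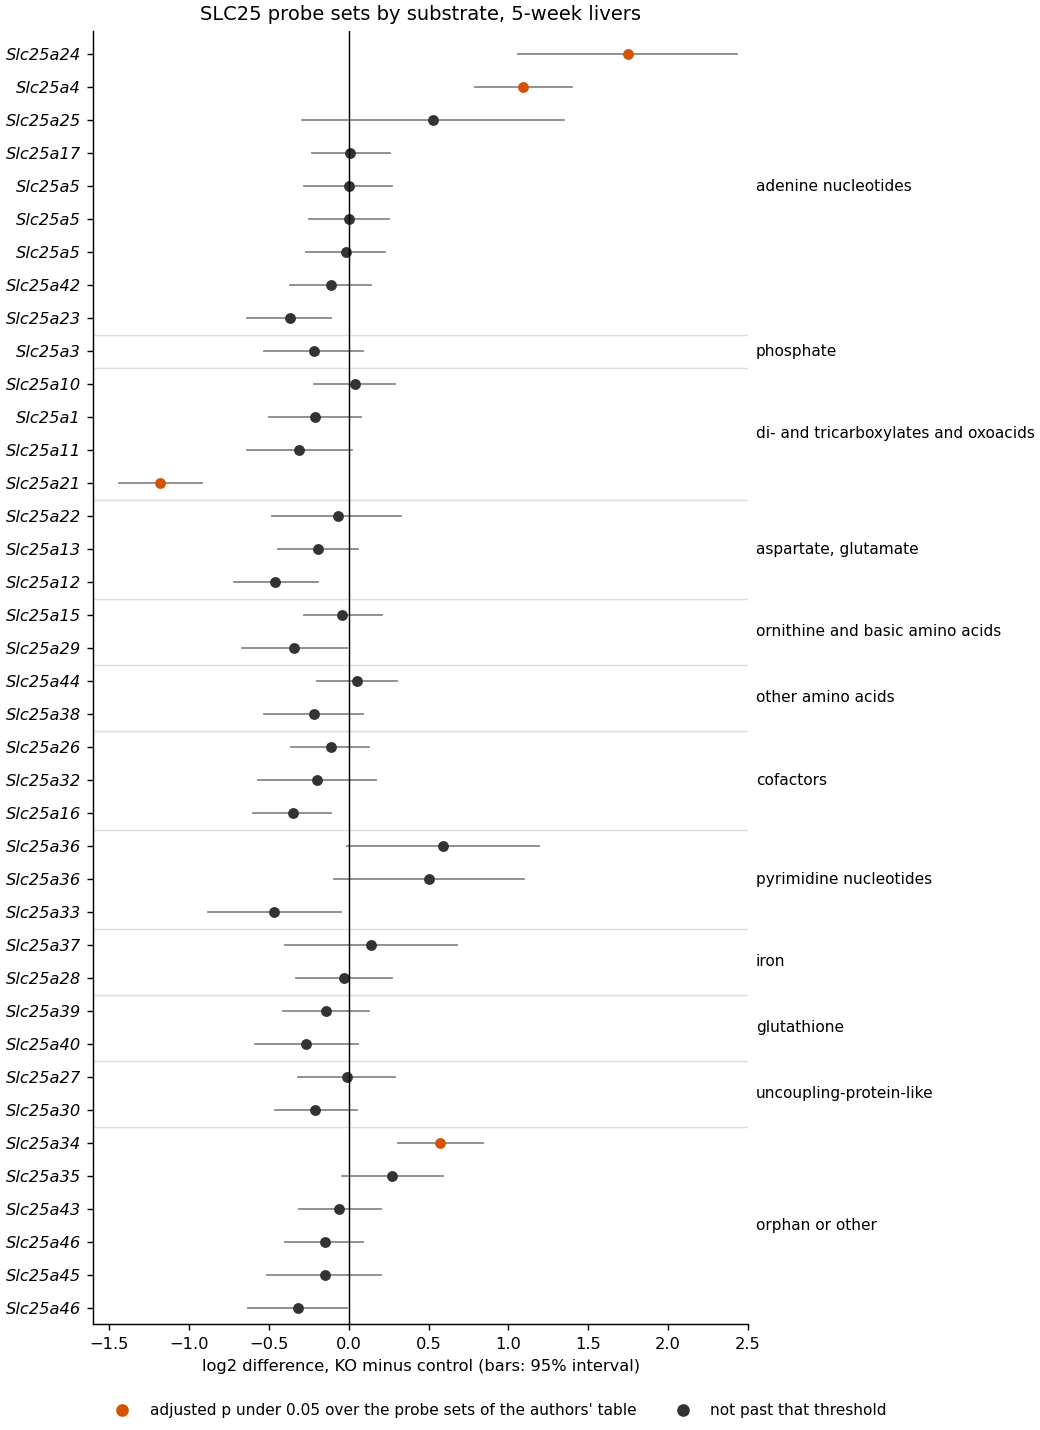
Log2 difference, KO minus control, of 39 SLC25 probe sets at 5 weeks (x axis), grouped by substrate from top to bottom, with bars for the 95% interval of the limma fit on the authors' table. Orange points, those past an adjusted p of 0.05 in that fit, are Slc25a24 (1.75), Slc25a4 (1.09), Slc25a34 (0.57) and Slc25a21 (-1.18), and the 35 black points lie between -0.47 and 0.59, 6 of them with intervals below 0.

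Relatives outside the symbol rule were measured too. Slc25a51, the NAD+ carrier listed under its older symbol Mcart1, had 9.91 and 9.77 in KO livers, against 8.78 and 9.15 in control livers. Its difference of 0.88 (SE 0.15) was called (limma, adjusted p = 0.0244), with 0.126 over all 35556 probe sets. Ucp2, an uncoupling protein of the same family, had 10.95 and 10.78 in KO livers, against 9.14 and 9.03 in control livers. The difference of 1.78 (SE 0.11) was called (limma, adjusted p = 0.00386), with 0.0544 over all probe sets. Slc25a47 and Slc25a48, listed as AI132487 and AU042651, each differed by 0.05 and overlapped. The pyruvate carrier subunits Mpc1 and Mpc2, which belong to another family, differed by -0.28 and -0.06. Mtch1 and Mtch2 differed by -0.08 and -0.22. Of the 9 genes listed as carriers without the symbol, 6 were measured, 2 were called higher and none lower, with a median of -0.07. Over the table, 8.70% of probe sets were called higher and 3.27% lower.

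Partner genes of the carriers were counted from lists taken from general knowledge, with 1 probe set per gene. Over the table, 8.70% of probe sets were called higher and 3.27% lower, and 49.4% had a lower mean in KO livers. Of 10 malate-aspartate shuttle and citrate export partners, 2 were called higher and 1 lower, with a median of -0.07. Citrate synthase, Cs, was higher at 0.64 (adjusted p = 0.0174 with limma) and the malic enzyme gene Me1 at 0.59 (adjusted p = 0.0368 with limma). Mdh1, the cytosolic malate dehydrogenase of the shuttle, was lower at -0.50 (adjusted p = 0.0396 with limma). The cytosolic aspartate aminotransferase gene Got1 had 11.80 and 10.61 in KO livers, against 12.49 and 12.31 in control livers, and was not called, with a KO gap of 1.19.

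Of 7 urea cycle partners of Slc25a15, all had lower means in KO livers and 1 was called, Otc at -0.73 (adjusted p = 0.0254 with limma). The median was -0.20, and Asl at -1.14 (adjusted p = 0.057 with limma) was not called. Of 9 iron and haem partners of the mitoferrins, 8 had lower means and none was called (median -0.27). Of 11 outer membrane channels and biogenesis factors, 10 had lower means and none was called (median -0.20). These held the porin genes Vdac1 (-0.30), Vdac2 (-0.06) and Vdac3 (-0.01) and Tfam (-0.34), which packages mitochondrial DNA. Of 6 glycine and folate partners, 5 had lower means and none was called (median -0.32), Gldc having the lowest difference at -0.84. These medians stand beside 0.0 over the table, the lower means beside 49.4% and the calls beside 12.0% of it. Nothing particular to a list follows from these values.

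**Figure D4:**
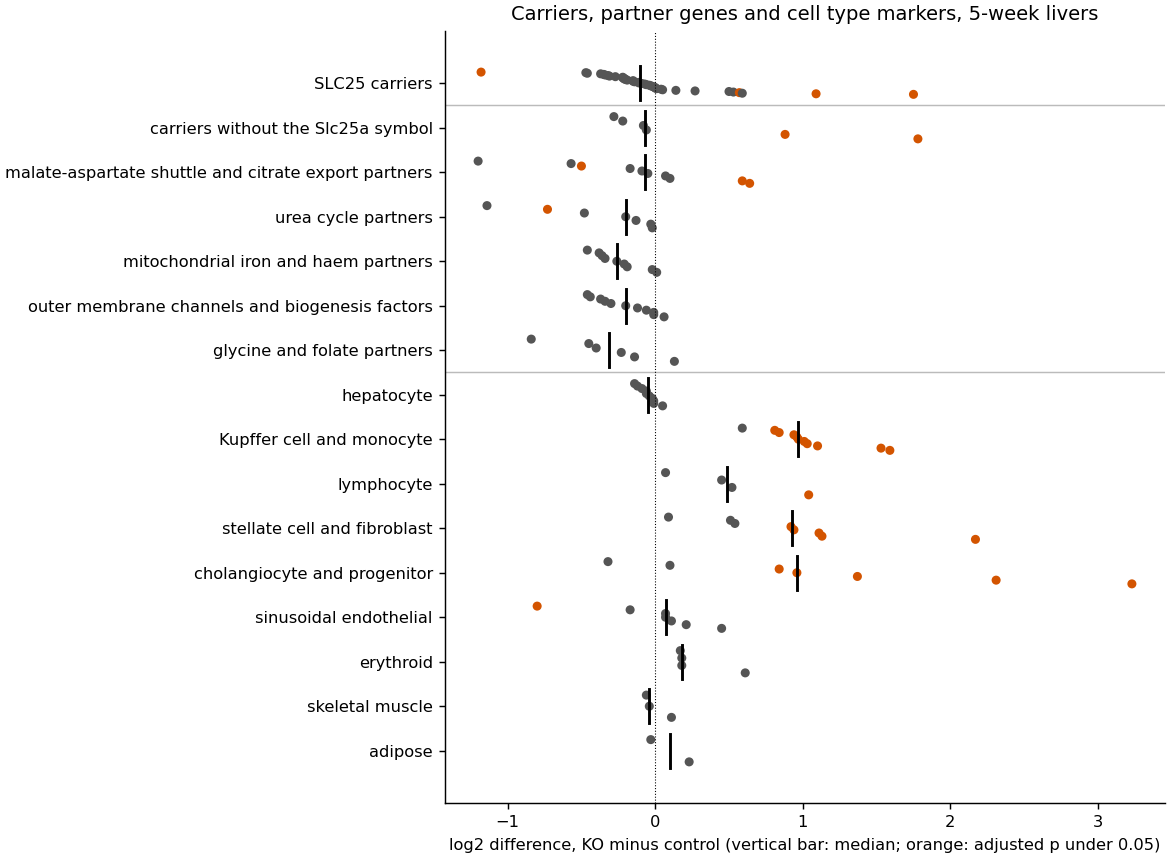
Log2 difference, KO minus control (x axis), of the 40 SLC25 probe sets and of the genes in other lists (y axis). There are 6 lists of partner genes and 9 lists of cell type markers, with 1 probe set per measured gene. Vertical bars are medians and orange marks an adjusted p under 0.05 over the authors' table. SLC25 carriers centre at -0.10, hepatocyte markers at -0.05 and Kupffer cell and monocyte markers at 0.97.

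All 10 hepatocyte markers were measured, with genotype means from 11.285 (Hnf4a, control livers) to 13.680 (Alb, control livers). None was called, and their differences ran from -0.14 to 0.05 with a median of -0.05. A lower mean in KO livers was found for 9 of them, beside 49.4% of the table. Lower without overlap were 3 of them, beside 27.1% of the table. The summed linear signal of all 10 was 83962 and 81222 in KO livers, against 85402 and 86611 in control livers. Several lists of markers of other liver cells had members called higher in KO livers, beside 8.70% of the table's probe sets. Of that table, 3.27% was called lower, and 30.4% was higher without overlap. All 11 Kupffer cell and monocyte markers were higher without overlap and 10 were called, with a summed linear signal of 9838 and 8951 in KO livers, against 4292 and 4640 in control livers. Stellate cell and fibroblast markers were called in 5 of 8, with sums of 6883 and 6981 in KO livers, against 4027 and 4825 in control livers. Cholangiocyte and progenitor markers were called in 5 of 7, with sums of 3154 and 3521 in KO livers, against 684 and 817 in control livers. The KO sums rest mostly on Spp1, with log2 values of 11.11 and 11.28 in KO livers, against 7.81 and 8.11 in control livers. Krt19 and Krt7 differed by -0.32 and 0.10 and were not called. Of lymphocyte markers, 4 of 7 were measured and 1 was called, Ptprc at 1.04, a gene that other leukocytes also express. Cd3e, Cd79b and Nkg7, at 0.07, 0.45 and 0.52, were not called. The sums, which include Ptprc and so are not particular to lymphocytes, were 563 and 451 in KO livers, against 339 and 340 in control livers. Sinusoidal endothelial markers had none called higher and 1 of 7 called lower, Lyve1 at -0.80, and a median of 0.08, with sums of 5112 and 5048 in KO livers, against 4842 and 4985 in control livers. Skeletal muscle markers summed to 281 and 299 in KO livers, against 279 and 302 in control livers, and the 2 measured adipose markers to 219 and 210 in KO livers, against 227 and 170 in control livers. The part of other cell types in the higher Slc25a24, Slc25a4, Slc25a34, Slc25a51 and Ucp2 was not tested. In bulk liver RNA, more cells of a type and more RNA per cell cannot be told apart.

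The deletion of miR-122 itself was not checked here. Of 3 reported miR-122 targets, Aldoa was higher at 1.32 (adjusted p = 0.0161 with limma) and Ndrg3 at 1.10 (adjusted p = 0.0105 with limma), while Slc7a1 at 0.40 (adjusted p = 0.117 with limma) was not called. Array correlations over all probe sets ran from 0.979 to 0.991, with 0.991 between the KO arrays and 0.985 between the control arrays. As a guide to background, 44 olfactory receptor probe sets of the table had a median level of 5.97. A genotype mean lay under it for 2 carrier probe sets, those of Slc25a27 and the first of Slc25a36, and at least 1 array lay under it for 4, the others being Slc25a24 and Slc25a29, so the size of these differences is uncertain.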

How the data were processed

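RNA of mouse livers was hybridised to Affymetrix whole-transcript arrays. The deposited log2 values were made by the authors using RMA in the Affymetrix Expression Console, per the submitters' processing notes. Versions and the genome build are not stated here. The value table gives each array to 2 decimals, and the mean of 2 arrays equalled the authors' deposited log2 group means within 0.005 for all 14996 shared probe sets, which names its rows. How its rows were selected is unknown here, and the higher genotype mean was at least 4.94, so carriers low in both genotypes may be missing. Its p-value column, deposited by the authors with the test unstated, and its linear ratio (fold) of KO over control, deposited by the authors, served as checks. Its 4 columns of single arrays match no sample label and were not used.

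Differences are KO minus control, tested with limma 3.58.1 (R 4.3.3; lmFit, eBayes, 2 residual degrees of freedom, two-sided, Benjamini-Hochberg) over all 35556 probe sets, and also over the probe sets of the authors' table alone. Standard errors and intervals come from the latter. The number of arrays limits the precision, and an exact permutation test of 2 against 2 cannot go below 0.333. Names were updated through RefSeq accessions (all 36 genes matched). The replicate numbers of the titles do not pair the arrays (correlation of deviations 0.05, and only 2 pairs). Carriers past the threshold, or differing by 0.5 or more, are given per array. The members and lists were chosen with earlier results of these data known. The fit was tested on simulated data. The counts cover all 40 probe sets, but 1 carrier is not reported here by itself.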

Additional observations from a re-analysis of the deposited data

How the results depend on the processing

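With limma over all 35556 probe sets, 0 were called; the count stayed 0 after another quantile normalization, with the replicate block, and as each array was left out (0 to 0), and was 56 with each array centred on its median, 462 with an intensity trend and 1269 without low means. It was 1794 over the authors' table, 1907 with 1 probe set per gene there, and 1786 with the authors' deposited p-values adjusted over it. Carriers called numbered 0 of 40 in the main setting, with the replicate block and as each array was left out (0 to 0), 2 with the trend, 4 without low means, 4 over the authors' table and 4 with the authors' p-values. With 1 probe set per gene there were 5 of 36, beside 1907 of 12952 probe sets, the added one being Slc25a12. After another quantile normalization, and with each array centred on its median, 0 of 40 were called. The 2 with the trend stand beside 462 of 35556 probe sets, and the 4 without low means beside 1269 of 21351. Those over the authors' table stand beside 1794 of 14996, and those with the authors' p-values beside 1786 of 14996. Of the settings chosen after seeing the data, all over the authors' table, the trend gave 1926 and 4 carriers, the replicate block 390 and 2 carriers (Slc25a24 and Slc25a21), and leaving out any 1 array gave 0 and 0; the lone array of a genotype was then assumed to vary like the pair. The median carrier difference ran from -0.14 to -0.06 as arrays were left out. Slc25a4, Slc25a21, Slc25a24, Slc25a25, Slc25a34 and Slc25a36 were followed because they were called or differed by 0.5 or more. Except for Slc25a25, their genotypes did not overlap, so leaving out 1 array could not reverse their sign. Hence it is no support for these differences that they kept their sign in every setting tried. Adjusted p over these settings ran from 0.0118 to 0.553 for Slc25a24, 0.00517 to 0.529 for Slc25a4, 0.0202 to 0.537 for Slc25a34 and 0.00326 to 0.529 for Slc25a21. The cause of the differences between sets of probe sets was not tested; settings at 8 weeks were not run, as those probe sets could not be named.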
